A study of Capra hircus with 6 samples.

Results

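The genes described here are 10 members chosen by name from the 15944 genes of the deposited table. They encode ligands and receptors of the TGF-β (transforming growth factor-β) family, mostly of activin signalling, and follistatins with follistatin-like proteins. They are the ligand genes INHBA, INHBB, GDF11, and GDF15, the follistatin genes FST, FSTL1, and FSTL3, and the receptor genes ACVR1, ACVR2A, and ACVR2B. All 10 were found, and all 10 passed the filter on low counts. RNA-seq had been performed on SHF-DPCs, the dermal papilla cells of secondary hair follicles, which are the mesenchymal cells at the base of the follicle that produces cashmere. The cells came from the scapular skin of wild-type adult Albas cashmere goats (Capra hircus, 3 years old) in the growth phase of the hair cycle, and were primary cultures at passages 4 to 7. The ATRA-treated group (3 libraries) received all-trans retinoic acid, the active form of vitamin A, at 100 µM for 24 h, and the control group (3 libraries) did not. In its viability assay the study gave controls an equal volume of medium, and it names no vehicle. At this dose it reported almost no EdU-positive (proliferating) cells and more TUNEL-positive (apoptotic) cells. The part of these effects in the RNA levels was not tested. The study's methods name 3 animals as the source of the treated cells, and the labels place all 6 libraries in batch 1. The comparison asks how ATRA changed the transcripts of these cells.

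Activins are dimers of inhibin beta subunits, so that INHBA encodes the subunit of activin A and INHBB that of activin B. They bind the type II receptors ACVR2A and ACVR2B, which recruit a type I receptor that phosphorylates Smad2 and Smad3. Follistatin, the product of FST, wraps around activins and keeps them from the receptor, and FSTL3 does the same. In mouse skin, activin A made by the mesenchyme and follistatin are known to influence how hair follicles form and cycle.

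Total counts ranged from 35532339 to 38012771 per library. The counts were scaled with edgeR's TMM factors and are given as normalized CPM, the reads on a gene relative to the scaled total of its library. The ATRA replicates 1 and 3 were more alike (chi-square per degree of freedom 5.01 across genes) than either was to ATRA replicate 2 (18.4 and 17.3), so values that rest on that library are also given without it. Of 12 markers of dermal papilla and mesenchyme, 8 were tested and all 8 fell with ATRA, against 38.7% of all tested genes that were lower. LEF1 changed least (log₂FC -0.54), with 550, 468, and 518 counts before scaling in the control libraries and 430, 517, and 478 with ATRA. These counts overlapped, so the fall of LEF1 depends on the scaling. SOX2, which was not tested, had 5, 0, and 2 counts in the control libraries and 10, 16, and 9 with ATRA. The summed level of the 12 markers was 84910 to 86720 CPM in the control group and 4340 to 4670 CPM with ATRA. Most of this sum came from COL1A1, COL1A2, and VIM, which are general mesenchymal genes. The dermal papilla markers PROM1, ALPL, and CORIN had 3 counts or fewer in every library. PROM1 encodes CD133, which the study detected as protein by immunofluorescence together with α-SMA, the product of ACTA2. The RNA of ACTA2 had a mean of 6582 CPM in the control group and 8.37 CPM with ATRA. The leukocyte markers summed to 9.18 to 12.8 CPM and 41.2 to 44.1 CPM, almost entirely from CD14 and CD68, and keratinocyte, endothelial, melanocyte, and adipocyte markers each summed to less than 10 CPM in every library. Only 4 of 5 leukocyte, 4 of 7 keratinocyte, 1 of 5 melanocyte, and 2 of 4 adipocyte markers were among the deposited genes. Low sums therefore cannot show that such cells were absent. KRT10 rose (log₂FC 0.82), whereas KRT5 and KRT14, not tested, had 3 counts or fewer in every ATRA library. The endothelial sum was 0.903 to 1.24 CPM in the control group and 6.19 to 9.16 CPM with ATRA. Most of the latter was PECAM1, with 0 counts in every control library and 242, 340, and 206 with ATRA. TEK rose too, VWF overlapped, and KDR, not tested, went from 5, 6, and 10 counts to 2, 1, and 0. The part of these shifts in the results below was not tested. In bulk RNA, fewer cells of a type and less RNA per cell cannot be told apart.

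With ATRA, INHBA fell 20.2-fold, GDF15 rose 12.3-fold, ACVR2B rose 7.26-fold, and GDF11 rose 3.66-fold. FST rose 1.42-fold, whereas FSTL1 and FSTL3 fell 2.05-fold and 1.89-fold. Among the remaining receptors, ACVR2A rose 1.46-fold and ACVR1 rose 1.17-fold. In edgeR's quasi-likelihood test, adjusted by Benjamini-Hochberg over 12588 genes, 10 of 10 members had an adjusted p under 0.05, 6 higher and 4 lower. This count has to be read against a background of 79.7% of all tested genes past the same threshold (40.9% higher and 38.7% lower). The fold and p thresholds of the study's methods (|log₂FC| above 1 and p under 0.05, before adjustment) were passed by 5 of 10 members, 3 higher and 2 lower, against 31.0% of all tested genes. The median absolute log₂FC was 0.97 over the members and 0.59 over all tested genes. In all 10 members the ATRA and control libraries did not overlap, which was also so for 80.1% of all tested genes.

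**Figure D1:**
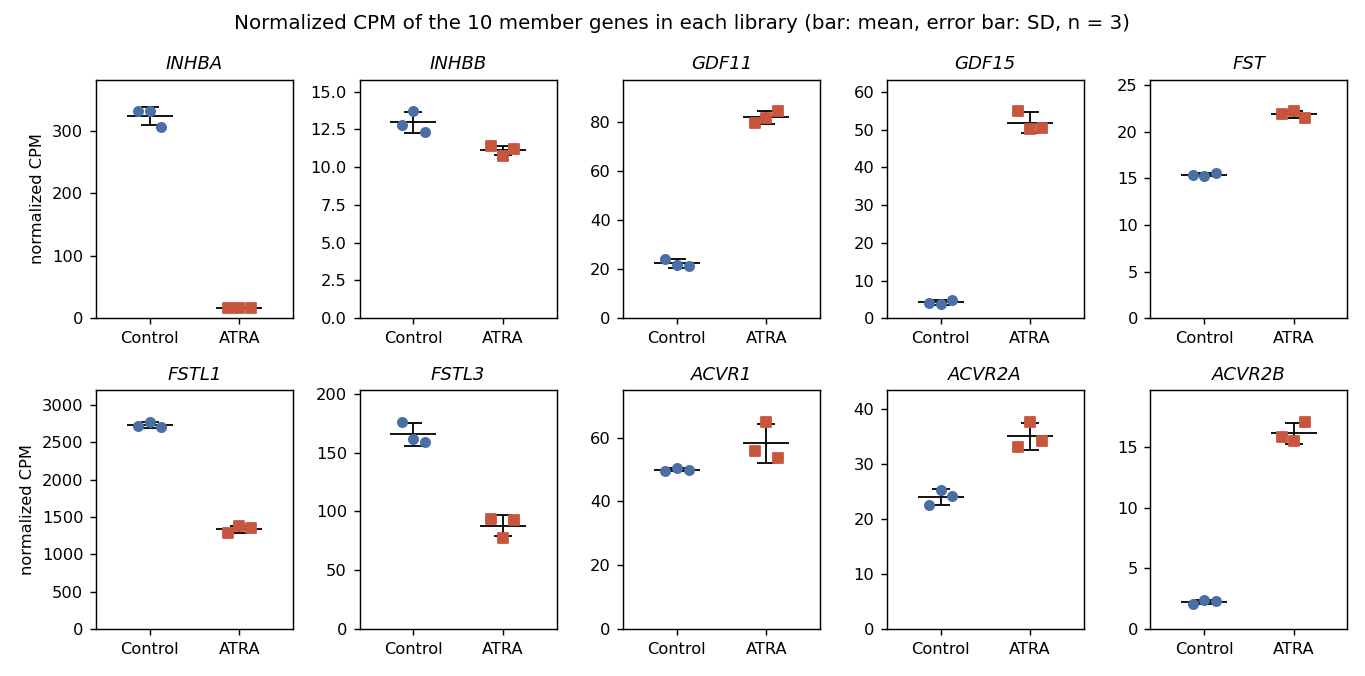
Normalized CPM (y axis, from 0, a separate scale for each gene) of the 10 members in the control and ATRA libraries, with 1 point for each library, the mean as a horizontal bar and the SD as the error bar (n = 3). INHBA dropped from above 306 CPM to below 17 CPM, GDF15, GDF11, and ACVR2B rose, and INHBB lay close to its control level.

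INHBA was the member with the largest change. Its normalized CPM was 332, 332, and 307 in the control libraries and 16.0, 15.7, and 16.3 in the ATRA libraries. All control libraries were high and all ATRA libraries low, with an SD of 14.7 and 0.289 CPM (n = 3 each). The log₂FC was -4.33 (standard error 0.0653, adjusted p = 4.37e-20), rank 297 from the lowest of the 12588 genes, and 3.58% of tested genes had a larger absolute log₂FC. Across 16 alternatives it stayed between -4.38 and -3.86.

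INHBB behaved differently from INHBA. It had 12.8, 13.7, and 12.3 CPM in the control group and 11.4, 10.8, and 11.2 CPM with ATRA. The ATRA libraries lay just below the control libraries, and the log₂FC was -0.22 (standard error 0.0944, adjusted p = 0.0391). This call did not hold. The log₂FC was 0.26 with library size only (adjusted p = 0.0173) and -0.14 with upper-quartile scaling (adjusted p = 0.167), and the adjusted p was above 0.05 when any library other than Control replicate 3 was left out. No direction is therefore given for INHBB.

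GDF11, a close relative of myostatin that signals through the activin type II receptors, had 24.3, 21.6, and 21.1 CPM in the control libraries and 79.3, 81.5, and 84.4 CPM in the ATRA libraries. The lowest ATRA library was above the highest control library, and the log₂FC was 1.87 (standard error 0.0719, adjusted p = 2.52e-14). GDF15 encodes a distant member of the family that stressed cells secrete and that signals through GFRAL, a receptor of the brainstem. It had 4.06, 3.68, and 4.92 CPM in the control libraries, on 126, 119, and 158 counts. With ATRA it had 55.0, 50.2, and 50.4 CPM on 2377, 2213, and 2085 counts. The log₂FC of GDF15 was 3.62 (standard error 0.101, adjusted p = 2.21e-16), rank 229 from the highest. The ligand genes thus moved in both directions, INHBA down and GDF11 and GDF15 up.

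The follistatin genes also split. FST had 15.4, 15.2, and 15.6 CPM in the control group and 21.9, 22.3, and 21.5 CPM with ATRA. The spread within each group was small (SD 0.163 and 0.379 CPM), and FST rose with a log₂FC of 0.51 (standard error 0.0796, adjusted p = 1.27e-05). FSTL3 fell from 176, 162, and 159 CPM to 93.6, 77.5, and 92.3 CPM, with a log₂FC of -0.92 (standard error 0.0714, adjusted p = 1.11e-09). ATRA replicate 2 was the lowest library for FSTL3, and without it the log₂FC was -0.84. FSTL1, which carries a follistatin-like domain but is closer to the matricellular protein SPARC, is an abundant secreted glycoprotein of mesenchymal cells. It had 2717, 2780, and 2711 CPM in the control libraries and 1285, 1373, and 1353 CPM in the ATRA libraries. FSTL1 fell, with a log₂FC of -1.03 (standard error 0.0571, adjusted p = 6.58e-12) that was close to the fold threshold of the study, and with library size only it was -0.55.

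All 3 receptor genes passed the test as higher, against 40.9% of tested genes that were higher. ACVR2B, a high-affinity type II receptor for activins and GDF11, went from 2.03, 2.35, and 2.27 CPM in the control group to 15.8, 15.5, and 17.1 CPM with ATRA. The control libraries held 63, 76, and 73 counts of ACVR2B and the ATRA libraries 684, 683, and 708. The log₂FC was 2.86 (standard error 0.121, adjusted p = 1.17e-13), and 7.95% of tested genes had a larger absolute log₂FC.

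The other type II receptor gene, ACVR2A, had 22.6, 25.3, and 24.3 CPM in the control libraries and 33.2, 37.8, and 34.2 CPM in the ATRA libraries. It rose with a log₂FC of 0.54 (standard error 0.0788, adjusted p = 4.88e-06), and without ATRA replicate 2 the value was 0.48. ACVR1 encodes a type I receptor that mainly passes signals of bone morphogenetic proteins (BMPs) and in some settings binds activin A. It had 49.5, 50.4, and 49.9 CPM in the control group and 55.9, 65.1, and 53.7 CPM with ATRA. ATRA replicate 2 was the highest of these. The log₂FC of ACVR1 was 0.22 (standard error 0.0736, adjusted p = 0.0103) with all libraries and 0.13 (adjusted p = 0.0756) without ATRA replicate 2. Its call thus rested on that library, whereas ATRA replicates 1 and 3 were also above every control library.

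**Figure D2:**
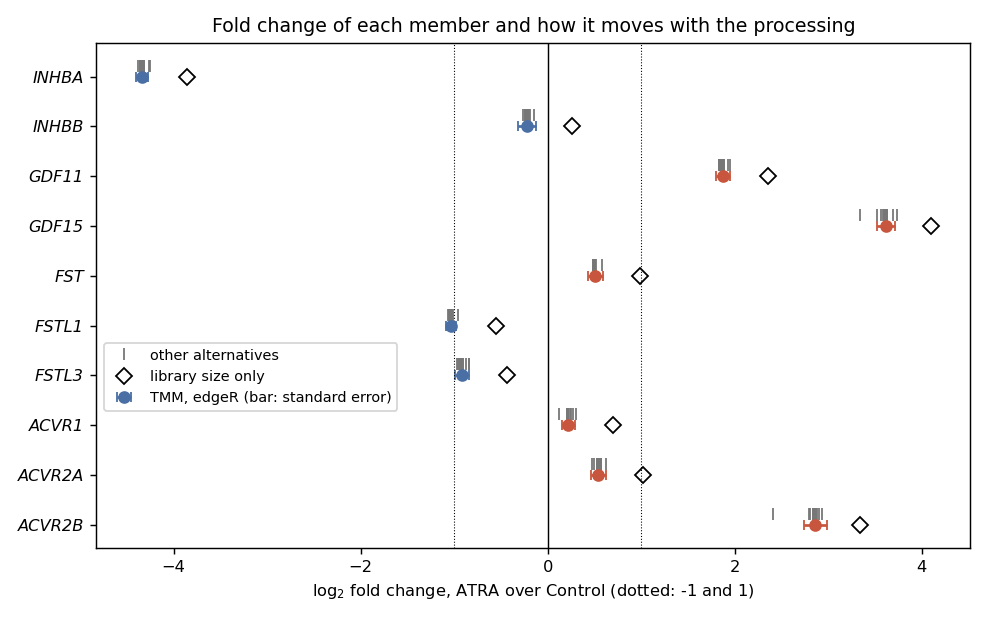
Log₂ fold change of ATRA over control (x axis) for each member, with filled circles for TMM scaling and edgeR (bar: standard error), diamonds for scaling by library size only, and grey ticks for the other alternatives, which include leaving out each library. The diamonds lie about 0.48 to the right of the circles for every gene, and only INHBB crosses 0, from -0.22 to 0.26.

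Scaling moves all of these values together. The median log₂FC of all tested genes was 0.04 with TMM and 0.52 with library size only, and the share of higher genes among those past the test was 51.4% and 73.5%. Relative to that shift, the log₂FC of the members kept their order. With library size only FSTL1 no longer passed |log₂FC| above 1, and ACVR2A did, at 1.02.

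**Figure D3:**
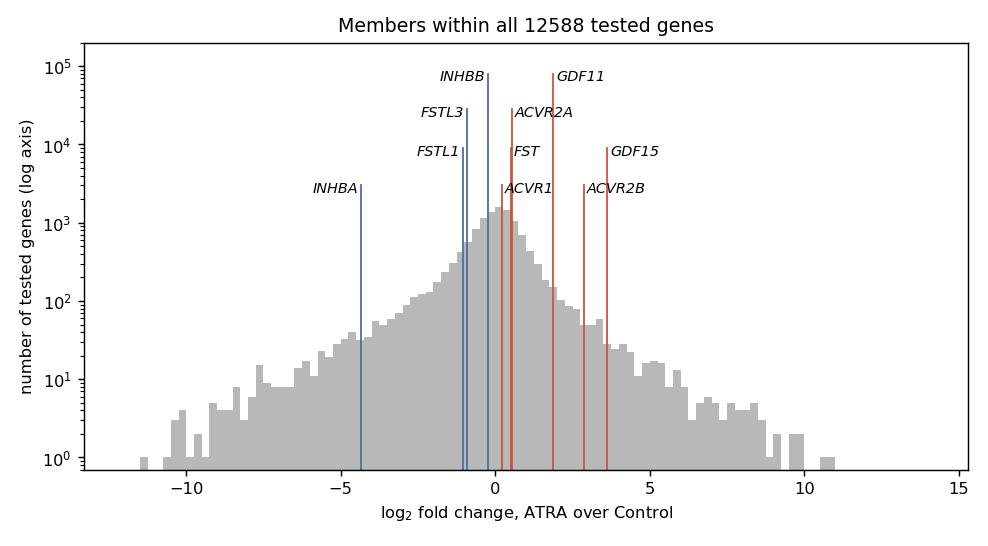
Histogram of the log₂ fold change of all 12588 tested genes (y axis: number of genes, log axis), with a vertical line for each member at its own value. INHBA lies in the lower tail and GDF15, ACVR2B, and GDF11 in the upper tail, while INHBB (0.26 with library size only), ACVR1, FST, and ACVR2A lie in the central mass.

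The ratio of 2 genes inside a library does not depend on how libraries are scaled, and gene length cancels in its change. From the counts, 8 such ratios were computed. The control libraries held 21.6, 21.8, and 19.7 counts of INHBA for each count of FST, and the ATRA libraries 0.733, 0.707, and 0.758. The ratio of the activin A subunit to follistatin was thus 28.6-fold lower with ATRA, a log₂ difference of -4.84 between group means (SD 0.0797 and 0.0509, n = 3 each). For INHBA to FSTL3 the ratio was 1.88, 2.05, and 1.93 in the control group and 0.171, 0.203, and 0.177 with ATRA, 10.7-fold lower. FSTL3 fell as well, by less than INHBA.

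INHBA had 25.9, 24.2, and 24.9 counts for each count of INHBB in the control group and 1.41, 1.46, and 1.46 with ATRA, so the balance of both beta subunits was 17.3-fold lower. INHBB to FST was 0.833, 0.901, and 0.792 in the control libraries and 0.520, 0.484, and 0.520 in the ATRA libraries, 1.66-fold lower. This ratio does not change with the scaling that turned the sign of INHBB itself. For GDF11 to FST the ratio was 1.58, 1.41, and 1.36 in the control group and 3.62, 3.66, and 3.92 with ATRA, 2.58-fold higher. FST to FSTL3 was 2.69-fold higher.

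Among the receptors, ACVR2A had 11.1, 10.8, and 10.7 counts for each count of ACVR2B in the control group and 2.10, 2.44, and 1.997 with ATRA, 4.97-fold lower. ACVR1 to ACVR2A was 1.25-fold lower. In each of the 8 ratios the control and ATRA libraries did not overlap. The exact permutation test (two-sided, 3 libraries against 3) gave p = 0.1 for each, the smallest p this design allows, and 0.1 after adjustment over the 8 ratios.

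**Figure D4:**
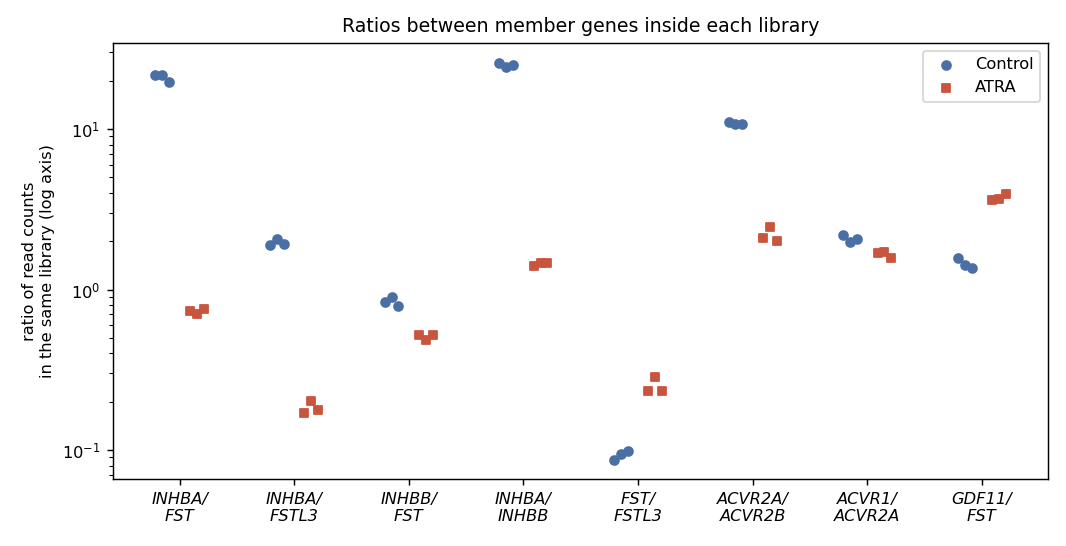
Ratio of the read counts of 2 members inside the same library (log axis), with circles for the 3 control and squares for the 3 ATRA libraries. The groups are apart in all 8 ratios, furthest for INHBA/FST, from about 20 in the control group to below 0.8 with ATRA, and least for ACVR1/ACVR2A; heights of different ratios cannot be compared, since gene length is not corrected.

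The rest of the pathway was examined in 7 lists by role. Of 74 genes listed, 52 were tested, of which 22 rose and 24 fell at the same threshold (edgeR, 40.9% and 38.7% of all tested genes). The counts of single lists below have to be read against the same shares. Their median log₂FC was -0.07, against 0.04 for all tested genes. With library size only, 29 were higher and 16 lower.

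Among 6 other ligand genes tested, GDF1, GDF9, BMP2, and INHA were higher and GDF6 and INHBE were lower. GDF6, a BMP-like ligand of skeletal and skin development, had 216 ± 5.68 CPM in the control group and 9.89 ± 0.733 CPM with ATRA (SD, n = 3 each). Its log₂FC of -4.45 was near that of INHBA. INHBE, a further inhibin beta subunit gene, fell with a log₂FC of -2.67 on 36 to 43 control counts and 8 to 9 ATRA counts. BMP2 rose from 1.02 ± 0.193 CPM to 4.35 ± 0.275 CPM with ATRA (SD, n = 3 each, log₂FC 2.08). GDF9 had a log₂FC of 2.57 on 6 to 18 control counts. INHA, which encodes the alpha subunit that turns activin into inhibin, had 6 to 10 counts in the control group and 30 to 37 with ATRA (log₂FC 1.62). INHA and GDF1 fall outside the naming rule and are given to complete the count.

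With TMM or DESeq2's scaling, none of the other receptor genes passed the test as higher. Of 7 tested, 0 passed the test as higher in edgeR, DESeq2, and limma-voom, also before adjustment of the p-values, and 5 were lower. TGFBR3 encodes betaglycan, which presents inhibin and TGF-β2 to their receptors, and had a log₂FC of -3.01. ACVR1B, the usual type I receptor of activins, had 13.5 ± 1.67 CPM in the control group and 8.39 ± 0.878 CPM with ATRA (SD, n = 3 each). It fell by 0.69 on the log2 scale (adjusted p = 2.55e-05). This is opposite in sign to the type II receptor genes ACVR2A and ACVR2B. The log₂FC of ACVR1B was -0.21 (adjusted p = 0.109) with library size only. The endothelial coreceptor gene ENG (-0.51), RET (-0.90), which encodes the coreceptor of GFRAL, and BMPR1A (-0.36), named to complete the count, also lost the call with library size only, and BMPR1A turned to 0.12. The type II receptor gene BMPR2, chosen after its values were seen, had a log₂FC of 0.08 (adjusted p = 0.434) with TMM and passed the test as higher with library size only (0.56, adjusted p = 7.94e-05), so that 1 of the 7 was then higher and 1, TGFBR3, lower.

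Of 5 tested antagonists and binding proteins, WFIKKN1 and WFIKKN2 were higher and HTRA1, SPARC, and SPARCL1 lower. WFIKKN1, whose product binds GDF11 and myostatin, went from 6.29 ± 0.785 CPM up to 15.4 ± 0.464 CPM (SD, n = 3 each, log₂FC 1.30). Its relative WFIKKN2 was at 0 counts in all 3 control libraries and at 13, 27, and 16 counts with ATRA, at least 4.60-fold higher against a floor of 3 counts per library. SPARC and SPARCL1 carry a follistatin-like domain as FSTL1 does, and their log₂FC was -3.61 and -4.90, against -1.03 for FSTL1. HTRA1, a secreted serine protease that binds TGF-β family ligands, had a log₂FC of -1.83.

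The proteases that free these ligands from their precursors were 2 higher and 4 lower of 6 tested. PCSK6, a proprotein convertase, had 158 ± 2.86 CPM in the control group and 8.83 ± 0.654 CPM with ATRA (SD, n = 3 each, log₂FC -4.16). TLL2 and BMP1, tolloid-type proteases that release GDF11 from its latent complex, had log₂FC of -3.79 and -0.95. PCSK5 (0.80) and PCSK7 (0.67), further convertase genes, rose. The convertase gene FURIN had a log₂FC of -0.33, which turned to 0.14 with library size only. PCSK7 and FURIN fall outside the naming rule.

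**Figure D5:**
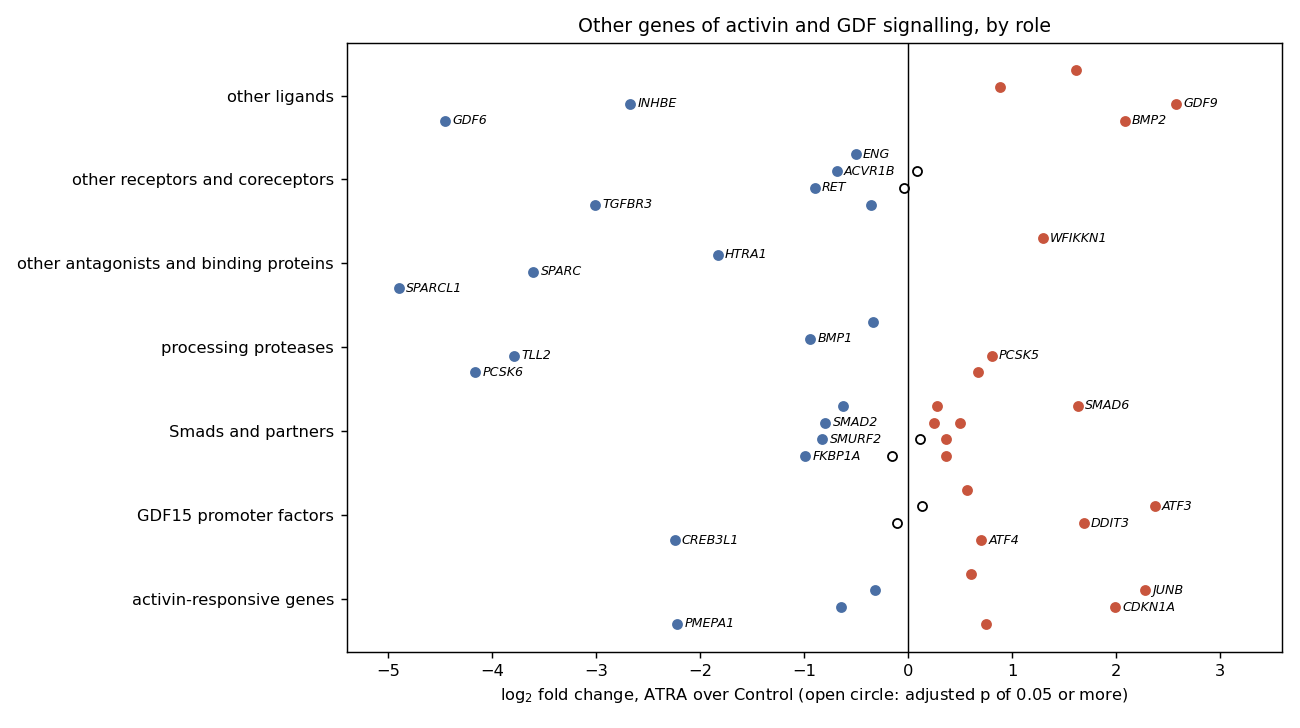
Log₂ fold change of ATRA over control (x axis, TMM scaling) for other genes of the pathway, in rows by role, with filled circles for an adjusted p under 0.05, open circles for the others, and names for the genes chosen by rule; WFIKKN2, with 0 control counts, and 2 genes not reported here are left out. GDF6, PCSK6, SPARC, and SPARCL1 lie at -3.61 or below, the other receptors lie near or below 0, and the sign of BMPR1A, BMPR1B, FURIN, SMAD7, EGR1, and CDKN2B turns with library size only.

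Of 12 tested Smads and partners, 6 were higher and 4 lower, against 40.9% and 38.7% of all tested genes. SMAD9 (-0.62), outside the naming rule, lost the call with library size only (-0.14, edgeR, adjusted p = 0.220). SMAD6, which encodes an inhibitory Smad, rose with a log₂FC of 1.63, from 23.4 ± 1.77 CPM up to 72.5 ± 3.37 CPM (SD, n = 3 each). The other inhibitory Smad gene, SMAD7, which falls outside the naming rule, did not pass the test (log₂FC -0.16, edgeR, adjusted p = 0.129). With library size only SMAD7 had 0.32 (adjusted p = 0.00401). The 2 Smads that carry the activin signal moved in opposite directions. SMAD2 had a log₂FC of -0.80, and SMAD3, which falls outside the naming rule, had 0.50 (edgeR, adjusted p = 1.98e-06). SMURF2, a ubiquitin ligase of the pathway, had a log₂FC of -0.82. FKBP1A, whose product holds type I receptors in the inactive state, had -0.99. Of 8 genes induced by activin or TGF-β in other cells, 4 were higher and 4 lower, against the same shares of all tested genes. CDKN2B (-0.32), outside the naming rule, was among the lower genes and lost the call with library size only (0.157, edgeR, adjusted p = 0.141). PMEPA1 fell with a log₂FC of -2.22, while JUNB rose with 2.28 and CDKN1A with 1.99.

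GDF15 is known to be induced by stress transcription factors. Examined beside it were 8 genes of factors known to bind its promoter, not all of them stress factors. Of these, 4 were higher and 2 lower, against 40.9% and 38.7% of all tested genes. SP1 (log₂FC 0.134) and EGR1 (-0.105) did not pass the test with TMM and are named to complete the count. ATF3 (log₂FC 2.37), DDIT3 (1.69), and ATF4 (0.70), factors of the integrated stress response, rose, and NFE2L2 (0.57), the oxidative stress factor, rose as well and is named to complete the count. CREB3L1 had a log₂FC of -2.25. None of the genes named here changed as much as GDF15 itself, at 3.62.

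The genes with the nearest profile were found by the Euclidean distance between log₂ CPM centered on each gene's mean, over the 6 libraries and 9029 other genes with a mean of at least 10 CPM. For INHBA they were WFDC1 (distance 0.1254), DPYSL3 (0.147), and LOC102190983 (0.151). For GDF15 they were STAC2 (0.196), KLHL29 (0.281), and HMOX1 (0.289), the heme-degrading enzyme of the oxidative stress response. The FST profile was a common one. It had XPO5, TRIT1, and PSMD12 at 0.0365 to 0.0499 and 2899 genes within a distance of 0.5, against 42 for INHBA and 15 for GDF15. With 2 groups of 3 libraries, these distances mostly reflect the size of the change with ATRA.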

How the data were processed

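Poly(A) RNA-seq was available for 6 libraries, 3 per group. According to the study's methods, reads were cleaned with fastp and TrimGalore (v0.6.6). The submitters' processing notes name HISAT2, featureCounts, and DESeq2, with no version. The genome build is not given in the sources used here, so no coordinates are printed. The authors deposited raw counts of reads per gene, without normalization, beside GO and KEGG annotation that was not used. Columns of per-sample values left unused numbered 0. All 10 member symbols matched the RefSeq gene table of the goat assembly ARS1.2.

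The expression filter of edgeR kept 12588 genes, which were scaled by TMM and tested by the quasi-likelihood test (robust, two-sided, with edgeR's default prior count) on condition only, with Benjamini-Hochberg adjustment over all genes tested. R's t.test function, named in the study's methods, was not used because the values are counts. Normalized CPM uses the TMM-scaled library total over tested genes. Standard errors were obtained by dividing the absolute log₂FC by the square root of the F statistic. Log₂ ratios within a library used 0.5 counts on both genes. A group with 3 counts or fewer in every library was treated as at the floor. These standard errors include the spread between libraries as edgeR estimates it, whereas the floors cover counting error only. Named genes are all members, up to 4 genes per pathway list with the largest absolute log₂FC at an adjusted p under 0.05 and at least 1 CPM, and 3 nearest profiles for INHBA, FST, and GDF15. Results for 2 genes of the pathway lists are counted but not reported here. The members and lists were chosen with earlier results of these data known.

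The labels do not say that equal replicate numbers mark the same animal, so the numbers were not taken as pairs. Deviations from the group means correlated at 0.299, -0.029, and -0.236 for same-numbered libraries. With 3 libraries per group these correlations can neither show nor exclude pairing by animal. If the libraries are not separate cultures of separate animals, p-values measure only the spread between these samples. The tests were tested on simulated data. In that simulation few genes changed, equally in both directions, so it cannot show how scaling acts where most genes change, as here. Tests were run with edgeR 4.0.16, DESeq2 1.42.0, and limma 3.58.1 in R 4.3.3, and plots were drawn with matplotlib 3.10.9 in Python 3.11.15.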

Additional observations from a re-analysis of the deposited data

How the results depend on the processing

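Alternatives were scaling by RLE, upper quartile, library size only, or TMM without the 100 most abundant genes, other filters, DESeq2, limma-voom, the replicate number as a block, a pseudocount of 1 on mean CPM, and each library left out in turn. Under these 16 alternatives INHBA, GDF11, GDF15, FST, FSTL1, FSTL3, ACVR2A, and ACVR2B kept their direction and, where a test was run, an adjusted p under 0.05. INHBB turned to a log₂FC of 0.26 with library size only, and its adjusted p passed 0.05 in 7 alternatives, up to 0.167. ACVR1 had an adjusted p of 0.0756 without ATRA replicate 2. The number of members past the test was 8 to 10 when 1 library was left out. The number past the fold threshold was 4 with upper-quartile scaling and 3 with |log₂FC| above 2. Among all tested genes, library size only gave 7921 higher and 2861 lower, against 5151 and 4877. With the replicate block, 9 of 10 members passed the test, since the adjusted p of INHBB was 0.0560, no other member changed its call, and the 8 ratios are the same by construction, for example -4.84 for INHBA to FST. Not every library correlated best with its own number. For INHBA to FST, leaving out each library kept the log₂ difference between -4.88 and -4.81, and adding 5 counts to both genes gave -4.82. The number of libraries, 3 per group, holds the exact test of a ratio at p = 0.1. Few counts limit the folds of INHA, GDF9, and INHBE, and with a pseudocount of 1 on mean CPM the log₂FC of GDF9 was 1.28 and that of INHBE -0.92.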
